A study of Mus musculus with 12 samples.

Results

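1700102P08Rik, D630045J12Rik and Zfp574 are protein-coding mouse genes with little assigned function that the study picked out by name among the genes its activator screen returned. They were taken by symbol from the gene tables of the screens, and they are 3 of 20409 genes in those tables. Because they were picked for their enrichment in the activator screen, every value of that screen is given here as a description and carries no test. Tests were run on the same genes in the repressor and posttranscriptional screens, whose enrichment was not the ground for the choice. The paper did describe Zfp574 as found specifically as an activator. A lack of calls for Zfp574 in the other screens is therefore not independent of the choice. A gene was tested only where it had at least 3 sorted insertions.

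ORFtag is a gene-trap-like tagging method. A retroviral cassette carries the PGK promoter, a neomycin resistance gene, an internal ribosome entry site, a tag and a splice donor. Where it lands in sense orientation upstream of or inside a gene, the tag is spliced to the next acceptor, and the protein encoded from that exon onwards is made as a fusion. Cassettes of all reading frames were mixed, so the frame of the exon does not by itself exclude a fusion. The cells were mouse embryonic stem cells derived from AN3-12, a line established from haploid embryos, and each screen used 1 clonal reporter line.

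The activator line carried the 7xTetO-pMYLPF-Puro-IRES-GFP reporter, with TetO sites before a minimal promoter, at an expression-stable locus on chromosome 15. The repressor line carried pEF1-BFP-7xTetO-pPGK-Puro-IRES-GFP, an active reporter, at that locus. Both were tagged with TetR, the bacterial repressor that binds TetO DNA. The PTGR (posttranscriptional gene regulation) line carried Puro-IRES-GFP-10xBoxB at random and was tagged with λN, which binds boxB hairpins in RNA. Activator cells were sorted once for gained GFP and repressor cells once for lost GFP. PTGR cells were sorted repeatedly for low GFP, boxB was removed by Cre, and cells with higher GFP were kept. Each screen gave 2 sorted and 2 unsorted libraries of mapped insertions, and all the cells were selected with G418 for the cassette. The screens differ in tag, reporter and sorting together, and these cannot be told apart.

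A tethering assay of this kind asks what a protein can do when it is brought to a promoter or a transcript, and not what it does at its own sites. The paper also tested 1700102P08Rik as a single cloned TetR fusion and reported strong activation of the reporter. For Zfp574 it reported that depletion impaired growth and lowered transcription of genes whose promoters the protein bound. Those experiments were not analysed here. 1700102P08Rik has the human counterpart C3orf62 and no well-described domain. D630045J12Rik corresponds to human KIAA1549, a large transmembrane-type protein best known because its amino-terminal part is joined to the BRAF kinase in pilocytic astrocytoma. Zfp574 is a C2H2 zinc-finger protein, a member of the largest family of mammalian DNA-binding proteins.

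An insertion is counted here as 1 unique position whose closest downstream exon, other than a first exon, lies within 200 kb. The 4 sorted TetR libraries held 14705 to 22266 such insertions and the 2 sorted λN libraries 58560 and 60980. Unsorted cells gave 54088 to 233799 per library, or 1022126 together, and are called the background. Levels are given as insertions per 10000 insertions of the same library. A position does not tell how many cells carried it, and intervals below cover counting error only.

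The acceptors that received sorted insertions of the activator screen are shown, with exon 2 of D630045J12Rik, because each sets where the fusion protein begins. Further exons of D630045J12Rik that received only background or PTGR sorted insertions are left out. Each stretch is 30 bases of GRCm38, read on the gene's strand, with the last 20 bases of the intron and the first 10 of the exon. The capitals mark the AG at which the intron ends.
1700102P08Rik exon 2, chr9:108393215-108393244, plus strand: gaaagcatggtcgcttttAGggaaatgtct
1700102P08Rik exon 3, chr9:108395274-108395303, plus strand: gcccccaatctggaccgcAGgaaggatatg
1700102P08Rik exon 4, chr9:108397173-108397202, plus strand: tttgtccttgttgttttaAGaccatacaag
D630045J12Rik exon 2, chr6:38197080-38197109, minus strand: aactttgcttcccttactAGatgacctctc
D630045J12Rik exon 15, chr6:38147264-38147293, minus strand: atttctgtttttcctctcAGctcacggatg
D630045J12Rik exon 16, chr6:38142900-38142929, minus strand: cccccttgcctctcacacAGtctgatcctg
D630045J12Rik exon 17, chr6:38139460-38139489, minus strand: tccttttgaatttttcctAGagatacgagg
Zfp574 exon 2, chr7:25079515-25079544, plus strand: gctgccttccctcctctcAGcccagggcct
All of these introns end in AG, the rule for mammalian introns.

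1700102P08Rik (ENSMUSG00000032611) lies on chromosome 9 at 108392805 to 108410934 of GRCm38, on the plus strand. In the activator screen it had 3 and 41 insertions in sorted replicates 1 and 2, or 1.72 and 27.9 per 10000. Its 2 sorted libraries were therefore far apart, and both stood above all 6 unsorted libraries. Unsorted cells of the activator line gave 2 and 10 insertions, those of the repressor line 3 and 2, and those of the PTGR line 9 and 1. That is 27 in the background, with a mean of 0.242 ± 0.154 per 10000 (SD, n = 6) and a highest library of 0.482. Set against the background, the sorted cells gave a log2 odds ratio of 5.70 (SE 0.35, exact 95% interval 4.98 to 6.45). It was 2.71 for replicate 1 alone and 6.73 for replicate 2 alone, so the size of the enrichment rested on replicate 2 while its direction was the same in both.

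D630045J12Rik (ENSMUSG00000063455) lies on chromosome 6 at 38123174 to 38254009, on the minus strand. It had 34 and 45 insertions in the sorted libraries of the activator screen, or 19.5 and 30.6 per 10000. Unsorted cells of the activator line gave 9 and 13 insertions, those of the repressor line 8 and 13, and those of the PTGR line 14 and 0. The mean of the background was 0.489 ± 0.258 per 10000 (SD, n = 6), and its highest library reached 0.735. Both sorted libraries lay above every unsorted one. Its log2 odds ratio reached 5.47 (SE 0.25, interval 4.96 to 5.98), with 5.13 and 5.78 in the replicates.

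Zfp574 (ENSMUSG00000045252) lies on chromosome 7 at 25072567 to 25083492, on the plus strand. It had 6 and 8 insertions in the sorted libraries of the activator screen, or 3.45 and 5.44 per 10000. Unsorted cells of the activator line gave 11 and 21 insertions, those of the repressor line 9 and 12, and those of the PTGR line 28 and 4. Zfp574 had the highest background of the 3 genes, with 85 insertions and 0.795 ± 0.257 per 10000 (SD, n = 6), and its sorted libraries again exceeded the highest unsorted library, at 1.20. For Zfp574 this gave a log2 odds ratio of 2.39 (SE 0.42, interval 1.46 to 3.22), and the replicates gave 2.05 and 2.71. This was the lowest pooled value of the 3 genes, and Zfp574 was also lowest within each replicate. In replicate 1 it gave 2.05, against 2.71 for 1700102P08Rik and 5.13 for D630045J12Rik. In replicate 2 it gave 2.71, against 6.73 and 5.78. The order of the other 2 genes changed between the replicates.

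**Figure D1:**
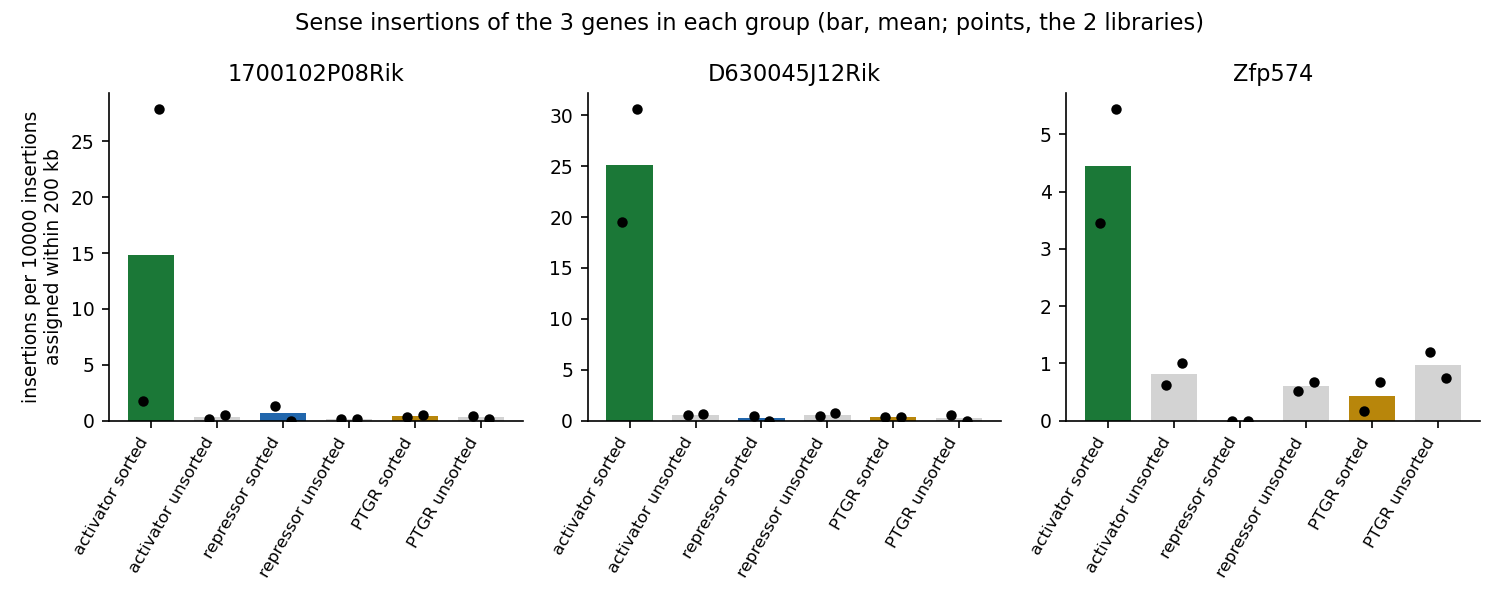
Insertions per 10000 insertions of the same library (y axis) for each gene in the 6 groups (x axis), with bars for the mean and points for the 2 libraries. Both sorted libraries of the activator screen lie above every unsorted library for each gene, and for 1700102P08Rik they are far apart, at 1.72 and 27.9.

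All 3 genes passed the call of the activator screen, an adjusted p under 0.001 with a log2 odds ratio no lower than 1. This was a condition of their choice, and 4.64% of all genes tested in that screen, 132 of 2842, passed it. Among the 132, ordered by log2 odds ratio, 1700102P08Rik ranked 44, D630045J12Rik 55 and Zfp574 121. By the number of sorted insertions they ranked 57, 38 and 101, and the medians of the called genes were 31 sorted insertions and, for the log2 odds ratio, 5.03. Zfp574 was therefore among the weakest called genes, and the other two were near the middle. In the background 1700102P08Rik had more insertions than 62.2% of all genes, D630045J12Rik more than 76.6% and Zfp574 more than 83.0%, against a median of 15 insertions per gene.

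The repressor and PTGR screens gave no call for any of the 3 genes. In the repressor screen only 1700102P08Rik had the 3 sorted insertions that the test needs. D630045J12Rik and Zfp574 were not tested there and could not be called. Of all genes tested, 8.18% were called as repressors and 0.666% as PTGR genes. 1700102P08Rik had 3 and 0 sorted insertions in the repressor screen, or 1.35 and 0 per 10000, so 1 library lay above and 1 below all unsorted libraries. Its log2 odds ratio was 1.60 (SE 0.88, interval -0.76 to 3.30), with an adjusted p of 0.515 in a one-sided Fisher's exact test. In the PTGR screen it had 2 and 3 sorted insertions, or 0.328 and 0.512 per 10000, inside or just above the range of the unsorted libraries. Here its log2 odds ratio was 0.66 (SE 0.70, interval -1.07 to 2.06, adjusted p = 0.747 in the same exact test).

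D630045J12Rik had 1 and 0 sorted insertions in the repressor screen, too few for the test, which needs 3. Its log2 odds ratio was -1.06 (SE 1.46, interval -6.39 to 1.47). In the PTGR screen it had 2 and 2, or 0.328 and 0.342 per 10000, both below the background mean and inside the range of the unsorted libraries. This is a log2 odds ratio of -0.74 (SE 0.75, interval -2.66 to 0.70, adjusted p = 1 in Fisher's exact test). The intervals of both screens lie wholly below that of the activator screen, whose value was chosen, and the difference was not tested.

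Zfp574 had 0 and 0 sorted insertions in the repressor screen, too few for the test. A count of 0 among 37470 insertions allows up to 0.801 per 10000, which is about the background mean of 0.795, so a lower level than background was not detectable at this depth, and the upper bound of the log2 odds ratio was 0.27. In the PTGR screen Zfp574 had 1 and 4 sorted insertions, or 0.164 and 0.683 per 10000. Its log2 odds ratio was -0.99 (SE 0.66, interval -2.65 to 0.29, adjusted p = 1 in Fisher's exact test), and the replicates gave -2.34 and -0.28. Neither screen held Zfp574 above its background.

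**Figure D2:**
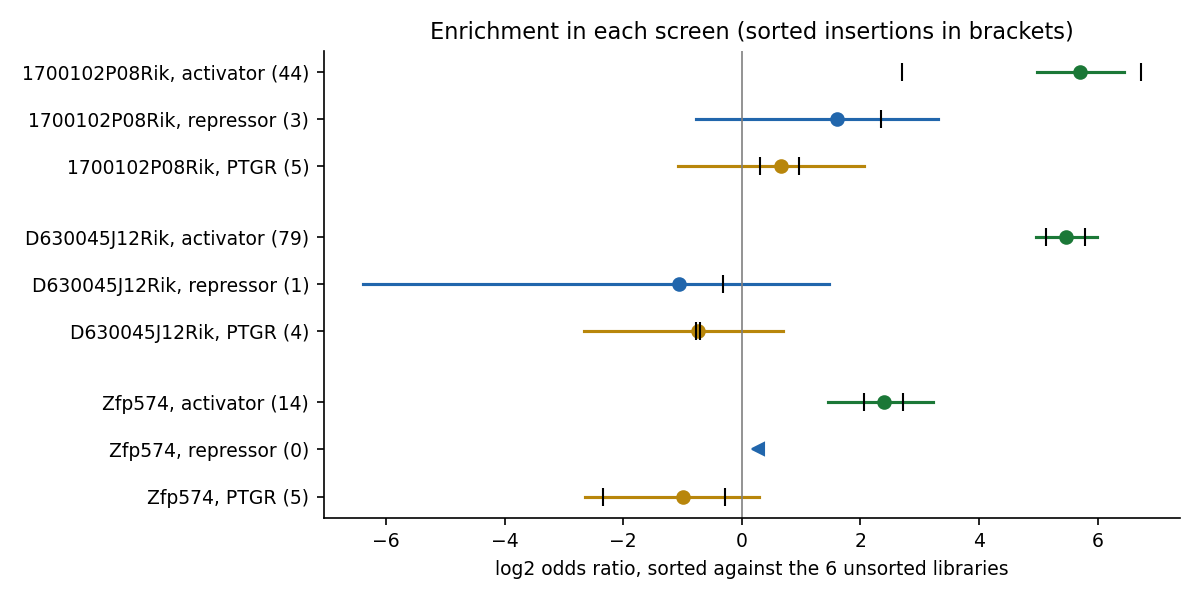
Log2 odds ratio of sorted against background insertions (x axis) for each gene and screen, with the exact 95% interval as a line, each replicate with an insertion as a tick and the number of sorted insertions in brackets. The arrow for Zfp574 in the repressor screen is an upper bound of 0.27, and every interval outside the activator screen reaches 0 or below.

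Each insertion was assigned to the closest downstream exon, and that exon sets which stretch of the protein a fusion would hold. No fusion transcript or protein was measured in these libraries. At D630045J12Rik the sorted insertions of the activator screen were packed into the far part of the gene. Of 79, 72 (91.1%, Wilson 95% interval 82.8 to 95.6) were assigned to exon 16, 6 to exon 15 and 1 to exon 17. In the replicates, 29 of 34 and 43 of 45 fell to exon 16. No sorted insertion was assigned to exon 2, whereas 30 of 57 background insertions were (52.6%, interval 39.9 to 65.0), and only 13 of the 57 were assigned to exon 16 (22.8%, interval 13.8 to 35.2). The share at exon 16 was therefore higher in the sorted cells, though unsorted cells also carried insertions there.

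A fusion to D630045J12Rik exon 16 would hold the last 308 of 1799 codons, or 17.1% of the coding sequence, counted without the stop codon. A fusion to exon 15 would hold 359 codons and one to exon 17 would hold 202. A fusion to exon 2 would hold all 1799, since the start codon lies in exon 2. All 79 sorted insertions lay in introns, at a median of 1858 bp from the exon and no farther than 4201 bp, against a median of 9457 bp in the background. The sorted replicates had medians of 2050 and 1776 bp. Medians of the unsorted libraries that held an insertion were uneven and ran from 2423 to 12790 bp. The intron before exon 16 is 4210 bp long and held 17.1 sorted and 2.85 background insertions per kb. The intron before exon 2, which is 56778 bp long, held 0 sorted and 0.405 background insertions per kb. The 2 neighbouring introns, before exons 15 and 17, held 5.65 and 0.32 sorted insertions per kb. Their background densities were 0.94 and 1.60 per kb, from 1 and 5 insertions. The sorted and the background density were therefore both lower on either side of the intron before exon 16.

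**Figure D3:**
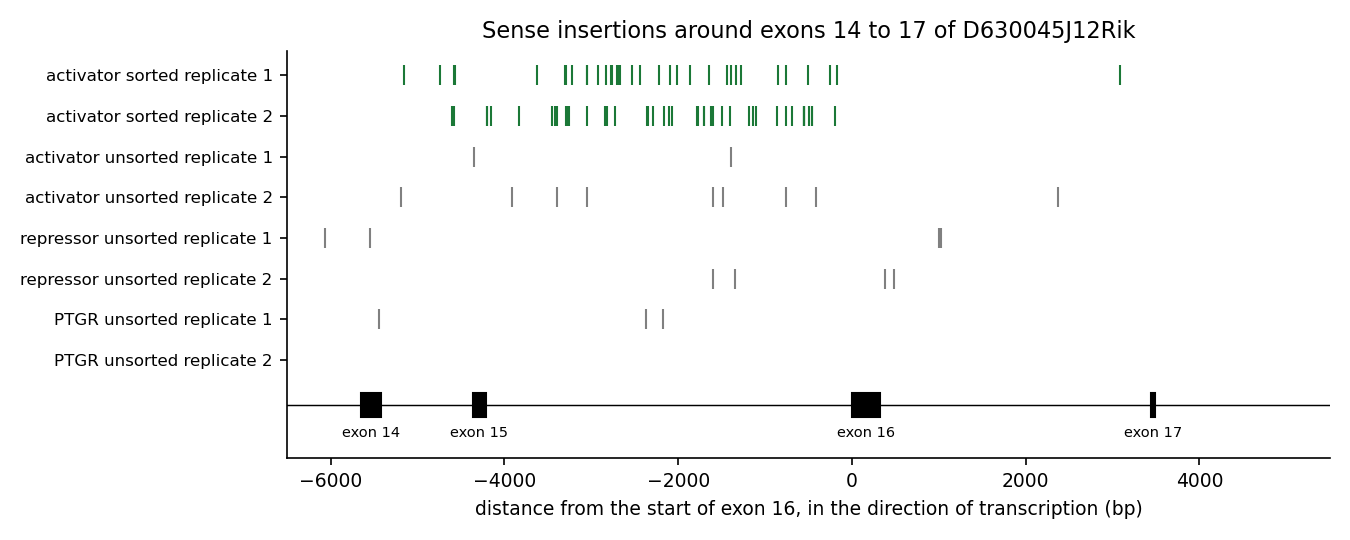
Sense insertions (ticks) in the 2 sorted activator libraries and the 6 unsorted libraries (rows) by distance from the start of exon 16 of D630045J12Rik along the direction of transcription (x axis, bp), with exons as boxes. All 79 sorted insertions lie in this window, 72 of them between exons 15 and 16 and 1 beyond exon 16.

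When positions within 10 bp were merged, D630045J12Rik had 30 in sorted replicate 1 of the activator screen and 37 in sorted replicate 2. Unmerged, its 79 sorted insertions occupied 76 positions, of which 3 were in both sorted replicates, and 5 of the 76 were also in an unsorted library. Unsorted replicate 2 of the activator screen stood apart in this. It assigned 7 of its 13 insertions to exon 16, against 0 to 2 in each of the other unsorted libraries, and 4 of its exon 16 positions were also in a sorted library. The part that shared positions play in the background was not tested.

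1700102P08Rik is a short gene, and its insertions lay close to their exons both before and after sorting. Of the 44 sorted insertions of the activator screen, 32 were assigned to exon 3 (72.7%, interval 58.2 to 83.7), 10 to exon 2 and 2 to exon 4. The background had 17 of 27 at exon 3 (63.0%, interval 44.2 to 78.5) and 9 at exon 2, and these intervals overlap. A fusion to exon 3 would hold 118 of 252 codons, or 47.0%, and one to exon 4 would hold 87. A fusion to exon 2 would hold all 252, with 4 bases between the acceptor and the start codon. Among the 44 insertions, 24 lay in introns, 13 in exon 2 and 7 upstream of the gene. The 7 upstream insertions lay inside Usp4, the neighbouring gene on the same strand, which encodes a deubiquitinase. All 44 were 28 to 2038 bp from the exon, with a median of 1478 bp, and the background median was 1316 bp.

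No position of 1700102P08Rik was in both sorted replicates. Its 41 positions in sorted replicate 2 came to 28 when positions within 10 bp were merged, and the 3 of replicate 1 remained 3. Of the 41 positions of sorted replicate 2, 7 were also in unsorted replicate 2, which had 10 in all, and none of the other 5 unsorted libraries held a sorted position of the activator screen. Over all genes, 19.5% of the positions in sorted replicate 2 of the activator screen were also in unsorted replicate 2 and 1.46% in unsorted replicate 1. For sorted replicate 1 the shares were 4.96% with unsorted replicate 1 and 2.25% with unsorted replicate 2. What these shares do to the counts of 1700102P08Rik was not tested.

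**Figure D4:**
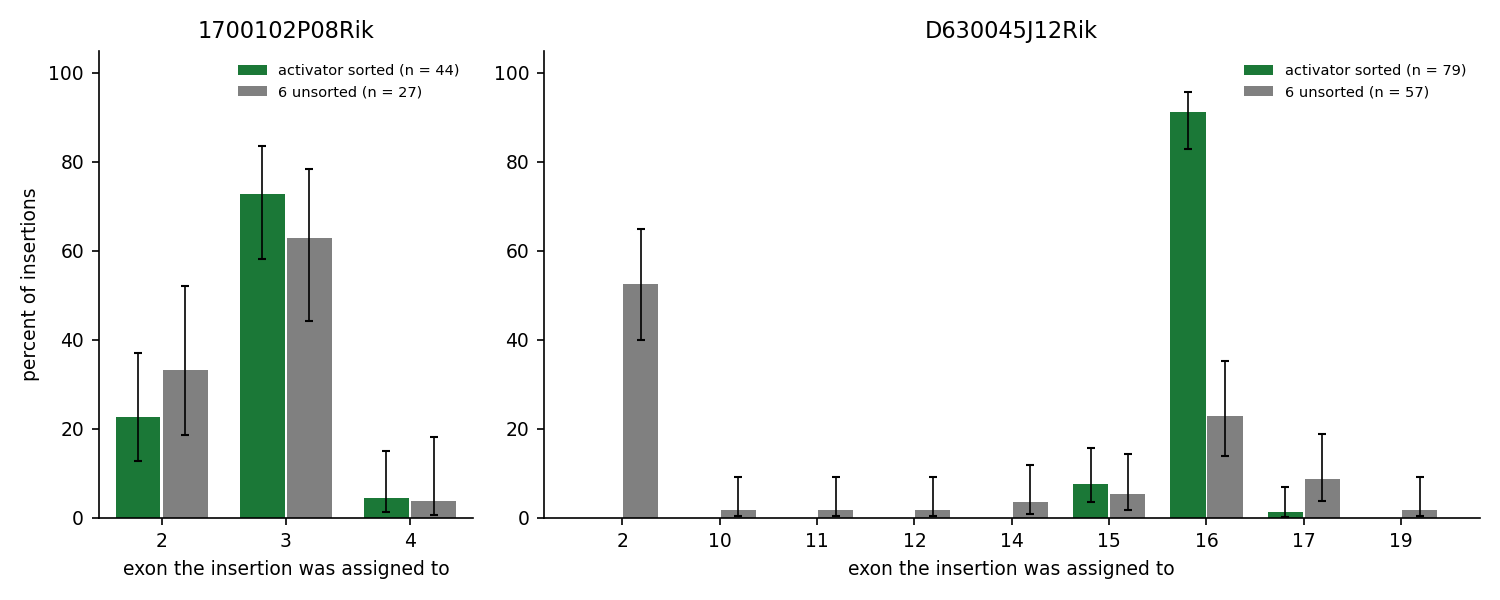
Percent of sense insertions (y axis) assigned to each exon (x axis) of 1700102P08Rik and D630045J12Rik, in the sorted activator libraries (green) and the 6 unsorted libraries (grey), with Wilson 95% intervals. The intervals of 1700102P08Rik overlap at every exon number, though its 1 background insertion at exon 4 was assigned to exon 4 of another transcript. D630045J12Rik had 52.6% of its background insertions at exon 2 and 91.1% of its sorted insertions at exon 16.

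Zfp574 has its whole coding sequence in exon 2, so every insertion of every library was assigned to that exon and every fusion would hold all 900 codons, with 20 bases between the acceptor and the start codon. The distances can still be compared. The 14 sorted insertions of the activator screen lay 89 to 33935 bp from the exon, with a median of 3705 bp, and 8 of 14 (57.1%) were within 5 kb. The background lay at a median of 64291 bp, with 24 of 85 (28.2%) within 5 kb. The median was 8116 bp in sorted replicate 1 and 3705 bp in sorted replicate 2, both below the pooled background median. The unsorted libraries were themselves uneven, and unsorted replicate 2 of the repressor screen had a median of 3188 bp, with 7 of 12 insertions within 5 kb, so the sorted values did not lie outside the range of the unsorted libraries.

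Of the 14, 11 lay inside the annotated span of Zfp574, which includes transcripts that start farther upstream, against 28 of 85 in the background. The other 3, all in replicate 1, lay inside Grik5, which encodes a kainate receptor subunit and runs on the opposite strand. In transcript Zfp574-202, from which the exons here are numbered, 12 of the 14 preceded exon 1, 1 lay in exon 1 and 1 in the intron after it. In the background, 45 of 85 lay inside another protein-coding gene. An insertion far upstream is assigned by rule and not by a measured transcript. With 50 kb as the longest distance Zfp574 had a log2 odds ratio of 3.30 in place of 2.39. Of the 14 positions, 1 was also in an unsorted library. The 5 sorted insertions of the PTGR screen lay at a median of 69478 bp, near the background value.

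**Figure D5:**
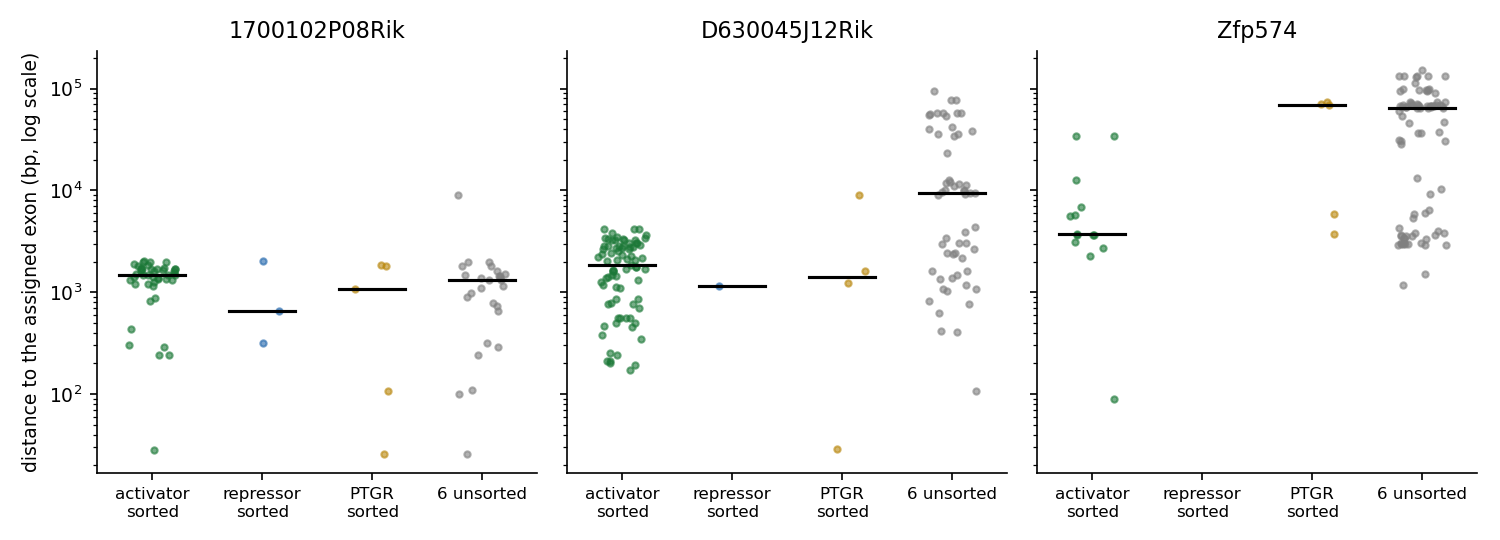
Distance from each sense insertion to its assigned exon (y axis, bp, log scale) in the sorted libraries of each screen and in the 6 unsorted libraries (x axis), with the median as a line. Sorted insertions of the activator screen lie nearer to the exon than the background at D630045J12Rik, with medians of 1858 and 9457 bp, and at Zfp574, with 3705 and 64291 bp, when the unsorted libraries are pooled, but not at 1700102P08Rik, with 1478 and 1316 bp. For Zfp574, 1 of the 6 unsorted libraries had a median of 3188 bp. For D630045J12Rik the medians of single unsorted libraries ran from 2423 to 12790 bp.

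Insertions in the reversed orientation, which cannot splice the tag into the gene, were counted against the reversed insertions of the same libraries. In the activator screen 1700102P08Rik and D630045J12Rik had 0 in both sorted libraries, with 11 and 40 in the background. A count of 0 among 29794 reversed insertions allows up to 1.01 per 10000, which is above the background means of 0.123 and 0.369, so a lower level was not detectable. Zfp574 had 2 and 1, or 1.21 and 0.754 per 10000, with 79 in the background and a mean of 0.749 ± 0.250 (SD, n = 6). For Zfp574 the reversed insertions of the sorted cells therefore lay near the background, in which the libraries ran from 0.465 to 1.17.

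The nearest gene on each side, by start coordinate, was counted in the same way. In the 2 sorted libraries of the activator screen Usp4 had 1 and 0 insertions and Ccdc36 had 0 and 0, beside 1700102P08Rik. Tmem213 had 1 and 0 and Zc3hav1l had 0 and 0, beside D630045J12Rik. Grik5 had 0 and 1 and Pou2f2, a POU-domain transcription factor, had 1 and 1, beside Zfp574. None of the 6 was called in any screen. Atp6v0a4, a proton pump subunit gene that overlaps the end of D630045J12Rik on the same strand, had 1 and 0 sorted insertions in the activator screen and 33 in the background, and was called in no screen. D430041D05Rik, the mouse relative of D630045J12Rik on chromosome 2, had 3 and 1 sorted insertions against 44 background insertions. At a log2 odds ratio of 1.53 (SE 0.75) it was not called, with an adjusted p of 0.567 in the exact test.

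Other genes with the same kinds of symbol were called as activators at shares near that of all genes tested, 4.64%. Of 440 other genes whose symbol ends in Rik, 36 could be tested in the activator screen and 1, 1810046K07Rik, was called (2.78%). As repressors 4 of 39 were called and as PTGR genes 1 of 166. Of 363 other genes named Zfp with a number, 51 could be tested in the activator screen and 2, Zfp335 and Zfp407, were called (3.92%). As repressors 51 of 103 such Zfp genes were called and as PTGR genes 1 of 184. Many numbered Zfp genes carry a KRAB box, a known silencing domain. Zfp574, with 0 sorted insertions in the repressor screen, could not be tested there.

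The genes most alike in pattern were ranked by Pearson's r of log2 insertion levels over the 12 libraries, among 9732 genes with at least 20 insertions. The libraries differ in depth and fall into groups. They include the sorted activator libraries on which the 3 genes were chosen. High values with other genes of that screen therefore follow in part from the choice, and the values are a description. Closest to 1700102P08Rik were Fbxl19 at 0.94, Ppp1r10 at 0.91 and Bag4 at 0.91. Fbxl19, a CpG-island-binding F-box protein, had 24 and 74 sorted insertions in the activator screen and so was also uneven. Closest to D630045J12Rik were E4f1 at 0.95, Pxn, which encodes the adhesion protein paxillin, at 0.95 and Rbbp5, a subunit of the histone H3K4 methyltransferase complexes, at 0.94. Closest to Zfp574 were Tsx at 0.95, Pprc1, a PGC-1-related coactivator, at 0.94 and the forkhead factor Foxj2 at 0.94. Among the 3 genes themselves r was 0.80 between 1700102P08Rik and D630045J12Rik, 0.62 between 1700102P08Rik and Zfp574, and 0.78 between D630045J12Rik and Zfp574.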

How the data were processed

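Inverse PCR followed by sequencing located the insertions of 12 libraries. According to the methods and the submitters' processing notes, the authors trimmed reads with Trim Galore 0.6.0, aligned them to mm10 with Bowtie2, removed low-quality and duplicate alignments with SAMtools 1.9 and assigned each position to the closest downstream non-first exon among protein-coding genes. The deposited lists hold assigned positions with distance in bp and exon number. Both unsorted libraries of the repressor screen listed 100% of their positions more than once. Sorted replicate 2 of the PTGR screen did so for 12.7%, and the other libraries for few or none. The deposited gene tables hold summed counts of insertions with the authors' own odds ratios and FDR, which were not used. Unique positions within 200 kb were counted here per gene and library. These counts equalled the authors' summed counts for the 3 genes, except 6 against 5 for 1700102P08Rik and 5 against 4 for D630045J12Rik in the PTGR sorted cells.

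A one-sided Fisher's exact test compared the 2 sorted libraries, summed, with the 6 unsorted libraries, summed, with Benjamini-Hochberg adjustment over all genes that had 3 or more sorted insertions. Calls needed an adjusted p under 0.001 with a log2 odds ratio no lower than 1. The sums treat insertions as independent and leave out the spread between replicates. The edgeR and DESeq2 fits compared 2 sorted with 2 unsorted libraries, for which a two-sided exact permutation test cannot go below 0.333. edgeR 4.0.16 and DESeq2 1.42.0 (R 4.3.3), and scipy 1.17.1 for the main test, were tried on simulated counts. Those counts had no spread between replicates beyond counting error, so the trial did not cover such spread. Exons, codons and acceptors come from GENCODE on GRCm38, the assembly also called mm10. The genes named beside the 3 are the nearest gene on each side by start coordinate, Atp6v0a4 as an overlapping gene added later, D430041D05Rik as a relative and the 3 most alike in pattern for each. The members and lists were chosen with earlier results of these data known. Protein sequences were not used here.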

Additional observations from a re-analysis of the deposited data

Results flagged for a closer look

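D630045J12Rik and Zfp574 lay above the background mean in both sorted libraries of the activator screen and below it in both sorted libraries of the other screens, and the difference between screens was not tested. The means of the sorted libraries of D630045J12Rik were 0.225 per 10000 for the repressor line and 0.335 for the PTGR line, against a background of 0.489. Those of Zfp574 were 0 and 0.424, against 0.795. In the repressor screen D630045J12Rik had 1 and 0 sorted insertions and Zfp574 had 0 and 0. A count of 0 at that depth allows up to 0.801 per 10000, above both background means. A level below the background was therefore not detectable in the repressor screen.

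Reversed insertions of D630045J12Rik were more frequent in the sorted cells of the PTGR screen than in any unsorted library. There were 5 and 6, or 0.838 and 1.04 per 10000 reversed insertions, with a mean of 0.937 against a background of 0.369 ± 0.123 (SD, n = 6) and a highest unsorted library of 0.534. The log2 odds ratio was 1.24 (SE 0.49), and Fisher's exact test over all genes gave an adjusted p of 0.285, so it was not called. This comparison was chosen after its values were seen.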

How the results depend on the processing

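Of the 39 alternative values of the log2 odds ratio in the activator screen, 37 moved by less than the spread between replicates. The exceptions were Zfp574 at 3.30 with insertions within 50 kb, and 1700102P08Rik at 2.71 without sorted replicate 2. Without sorted replicate 1 the value for 1700102P08Rik was 6.73. Part of this count was fixed in advance. The settings of at least 1 and at least 10 sorted insertions cannot move the ratio. Leaving out a sorted replicate was judged against a spread set by the same replicates, which is wide for 1700102P08Rik. Leaving out 1 library gave 5.13 to 5.78 for D630045J12Rik and 2.05 to 2.71 for Zfp574, and 66.7% to 73.2% of the sorted insertions of 1700102P08Rik at exon 3. In the repressor and PTGR screens no alternative that could be fitted called any of the 3 genes or turned a direction. There 1700102P08Rik ranged from 1.44 to 2.35 and D630045J12Rik from -1.11 to -0.31 in the repressor screen when 1 library was left out, and Zfp574 from -2.34 to -0.28 in the PTGR screen. In the repressor screen edgeR gave 1700102P08Rik 2.60 (adjusted p = 0.164) against the unsorted libraries of that screen.

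Replicate numbers are shared by sorted and unsorted libraries, but the labels do not say what a number stands for. With the replicate block edgeR called 101 genes in the activator screen and without it 84, against 132 in Fisher's exact test. In the PTGR screen these were 16 and 9 against 62, DESeq2 called 14, and the unsorted libraries of the same screen as background gave 40. The block gave log2 fold changes of 5.72 for 1700102P08Rik, 5.50 for D630045J12Rik and 2.49 for Zfp574 in the activator screen. The cause of these differences was not tested. With 0 to 5 sorted insertions per gene outside the activator screen, depth limits what those screens could show.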
